A study of Mus musculus with 6 samples.

Results

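Foxp3 and 8 further transcription factor genes that mark or shape the regulatory T (Treg) cell lineage were followed in RNA-seq of splenic Treg cells that differ in Cdc42, a small GTPase that controls the actin cytoskeleton and cell polarity. The members were taken by gene symbol: Foxp3, Ikzf2 (Helios), Ikzf4 (Eos), Ikzf1 (Ikaros), Gata3, Foxp1, Runx1, Runx3 and Cbfb. All 9 were among the 14608 genes of both deposited tables, and all 9 were among the 12233 genes tested. CD4 T cells were enriched on magnetic columns from mouse spleen, and flow sorting then took those that carried both CD4 and YFP, a fluorescent protein. There were 3 genotypes with 2 libraries each. They are labelled wild type (WT), heterozygous knockout of Cdc42 (Cdc42+/-) and homozygous knockout (Cdc42-/-). The labels do not name the strain, age or sex of the mice, the allele that carries YFP, or the promoter that removes Cdc42, and all 6 libraries came from cells sorted on YFP. Nothing in the labels says whether a library is 1 mouse or a pool, so p-values measure the spread between these libraries. That spread may be technical, except that the 2 Cdc42-/- libraries differ in sex-linked RNA (below).

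Treg cells hold other immune cells in check, and Foxp3 is the forkhead factor that defines them. Foxp3 acts in complexes with other DNA-binding proteins. Helios and Eos are Ikaros-family zinc-finger proteins that Treg cells express at high levels, and RUNX proteins bind DNA together with their partner Cbfb and act both at the Foxp3 gene and with the Foxp3 protein. Gata3 is the factor best known for T helper 2 cells and is also used by Treg cells, and Foxp1 is a forkhead relative of Foxp3 that is known for holding T cells in a resting state.

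Depth and purity of the libraries frame these values. The libraries held between 8556576 and 17796100 reads in genes. Between 373 and 21567 reads lay behind a member in a library, with the fewest for Runx3 and the most for Ikzf2. That spread was widest in Cdc42-/-, where the median over genes of the SD of log2(RPKM + 1) was 0.216, against 0.115 in WT and 0.0835 in Cdc42+/-. RPKM is the number of reads per kilobase of gene length, scaled to the size of the library. Cdc42 itself, at 166 and 161 RPKM for WT, 164 and 156 for Cdc42+/-, and 122 and 173 for Cdc42-/-, did not separate the genotypes, so the genotype rests on the labels. Replicate 2 of Cdc42-/- stood apart. The summed RPKM of 12 myeloid marker genes was 1535 in it, against 38.8 in replicate 1 of Cdc42-/-, 28.5 and 38.2 in Cdc42+/-, and 14.3 and 46.9 in WT, and each of the 12 genes had reads in every library. Erythroid markers (4 genes) summed to 24.8 RPKM there and to 4.45 or less elsewhere. Markers of B cells (7 genes) summed to between 10.4 and 19.5 RPKM, and those of CD8 T and NK cells (4 genes) to between 8.81 and 12.8 RPKM, over all libraries. The T cell genes Cd3d, Cd3e, Cd3g, Cd247, Lck, Lat, Cd2, Cd5, Cd28 and Cd4 had a geometric mean of 225 and 228 RPKM for WT, 235 and 234 for Cdc42+/-, and 181 and 139 for Cdc42-/-. Of these 10 genes, Cd3d, Cd3e, Cd3g and Lat were lower in Cdc42-/- than in WT past an adjusted p of 0.05 (limma). In bulk RNA, fewer cells of a type and less RNA per cell cannot be told apart. Xist was at 0.199 and 1.13 RPKM in WT, at 99.3 and 93.3 in Cdc42+/-, and at 87.4 and 21.2 in Cdc42-/-, while the Y-linked gene Ddx3y was at 37.7 and 42.4, 0.126 and 0, and 0.0974 and 27.5 RPKM. The 2 Cdc42-/- libraries thus differ in sex-linked RNA and are not technical repeats of 1 sample, and replicate 2 held both Xist and Ddx3y. Between WT and Cdc42+/- the sex-linked RNA changed along with the genotype, so sex and genotype cannot be told apart there. The part of these sex-linked differences in the values of the members was not tested.

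In WT Treg cells the members spanned more than an order of magnitude in RPKM, a scale that allows comparison between genes. Ikzf2 (128 ± 5.20 RPKM, SD, n = 2) and Foxp3 (125 ± 9.40) were highest, and their libraries overlapped. Below them came Ikzf1 (91.6 ± 2.94), Cbfb (62.8 ± 2.18) and Ikzf4 (54.6 ± 0.476), each apart from its neighbours. Foxp1 (46.8 ± 2.15) and Gata3 (45.9 ± 1.51) overlapped, and Runx1 (15.3 ± 1.89) and Runx3 (10.9 ± 0.439) were lowest. Foxp3 lay at the 97.5 and 97.2 percentile of all genes in the WT libraries, and Runx3 at the 57.5 and 59.5 percentile.

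The order was different in Cdc42-/-. Ikzf1 (123 ± 14.1 RPKM) was now highest, followed by Foxp3 (88.5 ± 42.4), Cbfb (78.5 ± 9.003), Ikzf2 (69.8 ± 18.5) and Gata3 (59.95 ± 4.60), where each gene's libraries overlapped with those of the next. Foxp1 (24.7 ± 4.02), Ikzf4 (24.1 ± 11.4) and Runx3 (23.6 ± 2.97) stood together, and Runx1 (13.8 ± 0.558) was lowest. Ikzf4 thus lay well above Runx3 in WT, and the libraries of these genes overlapped in Cdc42-/-. In Cdc42+/- Ikzf2 (133 ± 5.90 RPKM) was highest and Runx3 (15.2 ± 1.13) lowest, and no neighbours in the order overlapped.

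**Figure D1:**
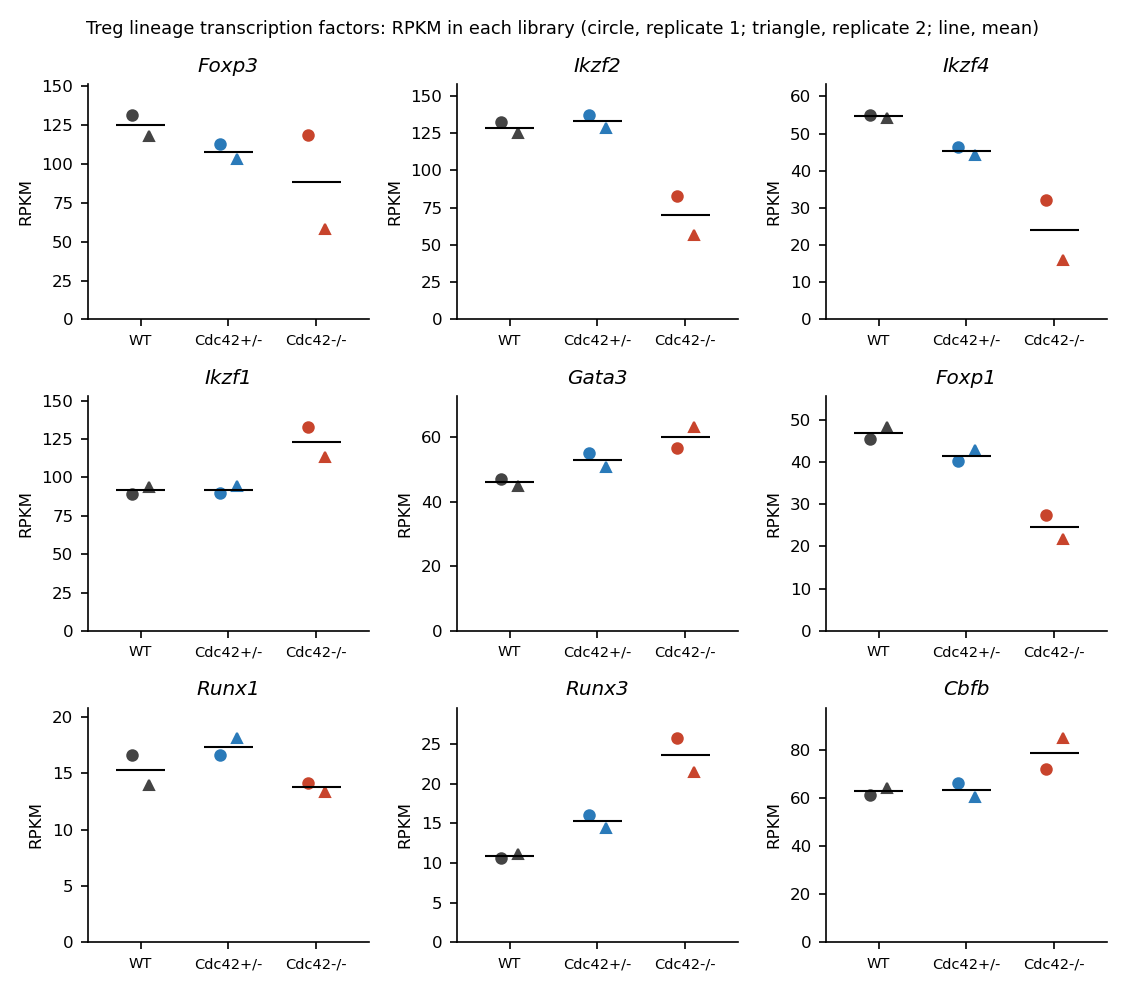
RPKM (y axis, from 0) of the 9 members in each library, by genotype (x axis); circles are replicate 1, triangles replicate 2 and lines the mean of 2 libraries. Ikzf2, Ikzf4 and Foxp1 are lowest and Runx3, Ikzf1, Gata3 and Cbfb are highest in both Cdc42-/- libraries. The Cdc42-/- libraries of Foxp3 lie far apart, at 118 and 58.4 RPKM.

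Against WT, Cdc42-/- Treg cells had lower Ikzf2, Ikzf4 and Foxp1 and higher Runx3 on the values as deposited. With libraries scaled to 10 T cell genes, whose geometric mean was also lower in Cdc42-/-, the 3 lower members lost the call: Ikzf2 went from -0.90 to -0.39 (limma adjusted p 0.0906), Ikzf4 from -1.22 to -0.73 (adjusted p 0.0561) and Foxp1 from -0.90 to -0.41 (adjusted p 0.0711). As deposited, these 4 of the 9 members passed an adjusted p of 0.05 (limma, adjusted over 12233 genes), 3 lower and 1 higher, where 11.4% of all genes tested passed, 4.57% lower and 6.86% higher. At an unadjusted p under 0.05 there were 7 members and 29.3% of all genes. Against Cdc42+/-, Ikzf2 and Foxp1 passed, both lower, where 8.22% of all genes did, 4.68% higher and 3.54% lower; at an unadjusted p under 0.05 there were 6 members and 27.1% of all genes. Between Cdc42+/- and WT 0 members passed, and so did 0% of all genes tested. In that comparison, 1 member, Runx3, had an unadjusted p under 0.05 (4.32% of all genes did), and 0 members passed under any of 14 alternatives. Over all genes, 9 of these alternatives called 0, voom on the recovered reads 1, only the 2 genotypes compared 72, array weights 88, and the fits without replicate 1 or 2 of Cdc42-/- 76 and 96. The comparisons share libraries, and so are not independent of each other.

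The calls in Cdc42-/- depended on which libraries informed the fit. Without WT replicate 1, and likewise without WT replicate 2, 0 members passed in either Cdc42-/- comparison, where between 2.11% and 2.28% of all genes did. Without Cdc42+/- replicate 1, 1 member passed against WT (4.46% of all genes) and 0 against Cdc42+/- (0% of all genes), and without Cdc42+/- replicate 2 the counts were 2 (4.57%) and 0 (0%). Without replicate 1 of Cdc42-/- they were 8 and 7, where 36.2% and 34.8% of all genes passed. Without replicate 2 of Cdc42-/-, the library with myeloid RNA, 5 members passed against WT and 5 against Cdc42+/-, in both cases Ikzf2, Ikzf4, Ikzf1, Foxp1 and Runx3, where 19.6% and 15.4% of all genes did; the single library left is then assumed to vary like the other genotypes. With only the 2 genotypes compared in the fit, the counts were 1 and 0, where 4.44% and 2.19% of all genes passed. The number of members thus moved with the number of genes called in all.

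**Figure D2:**
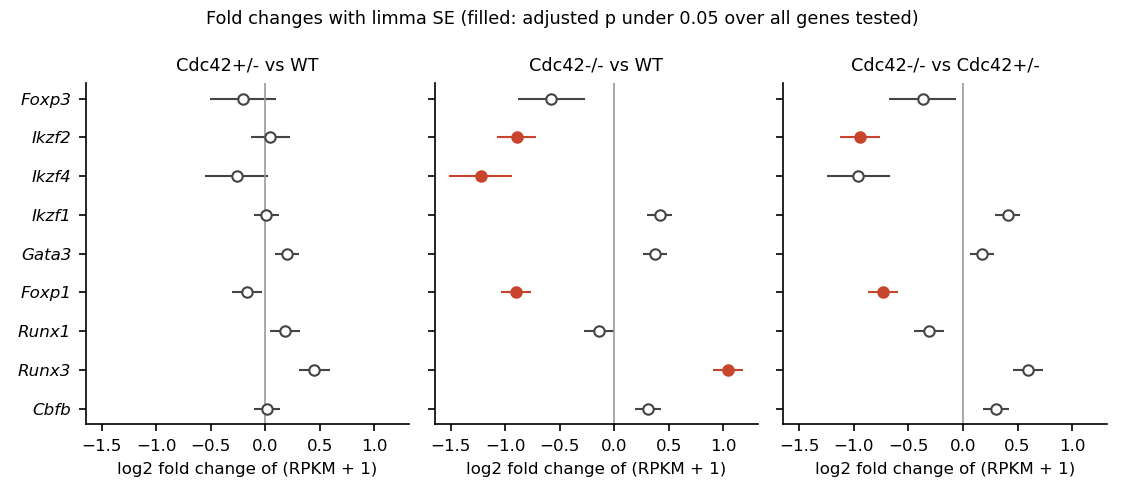
Log2 fold changes of (RPKM + 1) with limma's standard error (x axis) for the 9 members (y axis) in the 3 comparisons. Filled points passed an adjusted p of 0.05 over all genes tested: 0 members in the first comparison, 4 in the second and 2 in the third.

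Foxp3 (gene ID 20371, chromosome X from 7579676 to 7595243 on GRCm38, plus strand) is the lineage-defining member. The sequence around its start sites is shown because Foxp3 is reported as a target of several of the factors described here. Each window runs from 250 bases before to 50 bases after a start site in RefSeq (GRCm38.p6), 5′ to 3′ on the gene's strand. Capitals mark letters searched for on both strands. The letters for RUNX proteins were TGTGGT. For forkhead proteins, the family of Foxp3 and Foxp1, they were TGTTTAC. For the Ikaros family of zinc-finger proteins they were TGGGAA, and for GATA proteins they were AGATAA. The windows lie at chrX:7579426-7579725 and chrX:7580233-7580532.
Foxp3 start site 1: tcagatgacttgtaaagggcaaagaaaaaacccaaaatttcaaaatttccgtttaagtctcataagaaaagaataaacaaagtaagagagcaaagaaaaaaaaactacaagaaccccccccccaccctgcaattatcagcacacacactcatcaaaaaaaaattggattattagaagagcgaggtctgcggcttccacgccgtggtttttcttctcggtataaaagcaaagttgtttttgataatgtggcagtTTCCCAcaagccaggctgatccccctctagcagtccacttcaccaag
Foxp3 start site 2: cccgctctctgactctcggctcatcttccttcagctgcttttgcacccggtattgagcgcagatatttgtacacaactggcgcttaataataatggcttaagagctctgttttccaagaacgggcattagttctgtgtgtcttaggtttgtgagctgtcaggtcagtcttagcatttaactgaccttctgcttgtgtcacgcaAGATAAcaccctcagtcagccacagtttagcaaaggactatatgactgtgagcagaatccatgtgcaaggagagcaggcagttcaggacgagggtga
The first window held 1 match to the Ikaros letters, which 25.6% of 32817 promoter windows of the same length hold, and the second 1 match to the GATA letters, which 11.2% hold. A match is a description of the letters and not a binding site. Since the tables give 1 value per gene, they do not show which start site was used.

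Foxp3 RNA lay at the 91.5 percentile of all genes or above in all 6 libraries, and was lowest in replicate 2 of Cdc42-/-. It was at 131 and 118 RPKM for WT, 113 and 103 for Cdc42+/-, and 118 and 58.4 for Cdc42-/-. Replicate 1 of Cdc42-/- lay within the WT libraries and replicate 2 far below all others, so these genotypes overlapped, while both Cdc42+/- libraries lay below both WT libraries. The log2 fold change was -0.21 in Cdc42+/- against WT (SE 0.31, limma adjusted p 0.999) and -0.58 in Cdc42-/- against WT (SE 0.31, adjusted p 0.262), and -0.37 in Cdc42-/- against Cdc42+/- (SE 0.31, adjusted p 0.465). The SD of Foxp3 between the Cdc42-/- libraries, 0.712 on the log2 scale, was the largest of the 9 members. The low library is the one with myeloid RNA, whose part in the Foxp3 value was not tested. Its Foxp3 was 46.8% of the WT mean, and replicate 1 had 94.9%. Without replicate 2 of Cdc42-/- the change against WT was -0.07 (adjusted p 0.666), and without replicate 1 it was -1.08 (adjusted p 0.000539), in a range of 0.000539 to 0.837 over 14 alternatives. Foxp3 per Cd4 RPKM was 0.681 and 0.637 for WT, 0.514 and 0.492 for Cdc42+/-, and 0.690 and 0.445 for Cdc42-/-, so the Cdc42+/- libraries lay below WT on this scale too. The authors' deposited table gives Foxp3 log2 fold changes of -0.24 (Cdc42+/-) and -0.53 (Cdc42-/-) against WT, with adjusted p-values of 0.210 and 0.400. In GENCODE M21, exons of 4 other genes overlap those of Foxp3, among them Flicr on the same strand, and Ccdc22 and Ppp1r3f on the other. Whether reads were counted by strand is not given in the sources used here, so the Foxp3 values may include reads from these genes. The same limit holds for Foxp1, which shares exons with Gm20696 and Gm49348 on its strand, and Gata3, which does so with 9230102O04Rik. Ikzf2, Ikzf4, Runx1 and Gata3 each overlap 1 gene on the other strand, while 0 genes overlap Ikzf1, Runx3 and Cbfb.

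The Ikaros family was made up differently in Cdc42-/-. Ikzf2, which encodes Helios, was at 132 and 125 RPKM for WT, 137 and 129 for Cdc42+/-, and 82.9 and 56.7 for Cdc42-/-. Both Cdc42-/- libraries were below the other 4, and WT and Cdc42+/- overlapped. Ikzf2 fell by 0.90 on the log2 scale against WT (SE 0.18, limma adjusted p 0.0311) and by 0.94 against Cdc42+/- (SE 0.18, adjusted p 0.0331), with adjusted p-values between 0.000257 and 0.176 and between 0.000374 and 0.240 over 14 alternatives. Without replicate 2 of Cdc42-/- the falls were 0.625 and 0.672 (adjusted p 0.00405 and 0.00476).

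Ikzf4, which encodes Eos, a partner of Foxp3 in gene repression, was at 55.0 and 54.3 RPKM for WT, 46.5 and 44.4 for Cdc42+/-, and 32.2 and 16.1 for Cdc42-/-. The 3 genotypes did not overlap. Ikzf4 fell by 1.22 on the log2 scale in Cdc42-/- against WT (SE 0.29, adjusted p 0.0471, between 0.000131 and 0.223 over 14 alternatives), the lowest log2 fold change of the members. The value was -0.96 against Cdc42+/- (SE 0.29, adjusted p 0.0980) and -0.26 between Cdc42+/- and WT (SE 0.29, adjusted p 0.999). Without replicate 2 of Cdc42-/- the changes were -0.746 against WT (adjusted p 0.00249) and -0.485 against Cdc42+/- (adjusted p 0.0161), and without replicate 1 they were -1.70 (adjusted p 0.000131) and -1.44 (adjusted p 0.000333). Over 14 alternatives the adjusted p against Cdc42+/- lay between 0.000333 and 0.386. Replicate 2 was the lower Cdc42-/- library, at 29.5% of the WT mean, where replicate 1 had 58.9%. Ikzf4 per Cd4 RPKM was 0.285 and 0.293 for WT, 0.212 and 0.211 for Cdc42+/-, and 0.188 and 0.123 for Cdc42-/-, again with no overlap between genotypes.

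Ikzf1, which encodes Ikaros, a family member found across lymphocytes and other blood cells, moved the other way. It was at 89.5 and 93.7 RPKM for WT, 89.6 and 94.6 for Cdc42+/-, and 133 and 113 for Cdc42-/-, with both Cdc42-/- libraries above the other 4. Its log2 fold change was 0.42 against WT (SE 0.12, adjusted p 0.0694) and 0.41 against Cdc42+/- (SE 0.12, adjusted p 0.0842), short of the threshold. Without replicate 2 of Cdc42-/- Ikzf1 passed in both (0.534, adjusted p 0.00683, and 0.527, adjusted p 0.00962), as it did without replicate 1 (0.302, adjusted p 0.0335, and 0.294, adjusted p 0.0379), in ranges of 0.00683 to 0.279 and 0.00962 to 0.432 over 14 alternatives. The ratio of Ikzf2 to Ikzf1 RPKM was 1.48 and 1.33 for WT, 1.53 and 1.36 for Cdc42+/-, and 0.623 and 0.501 for Cdc42-/-, and needs no scaling between libraries. Helios RNA exceeded Ikaros RNA in the 4 libraries of WT and Cdc42+/- and was below it in both of Cdc42-/-.

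Counting Ikzf3 (Aiolos) and Ikzf5 (Pegasus) as well, Ikzf2 made up 36.8% and 36.3% of the family's summed RPKM for WT, 38.2% and 36.4% for Cdc42+/-, and 19.6% and 19.3% for Cdc42-/-. Ikzf4 went from 15.3% and 15.8% in WT through 13.0% and 12.6% to 7.60% and 5.49%. Ikzf3 took the opposite course, with 18.7% and 16.8% for WT, 19.2% and 19.4% for Cdc42+/-, and 38.2% and 32.1% for Cdc42-/-. In RPKM, Ikzf3 was at 67.1 and 57.6 for WT, 68.8 and 68.5 for Cdc42+/-, and 162 and 94.2 for Cdc42-/- (0.98 on the log2 scale against WT, SE 0.25, adjusted p 0.0550). The shares of Ikzf2 in both Cdc42-/- libraries were close to each other although their family sums, 424 and 293 RPKM, were not.

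**Figure D3:**
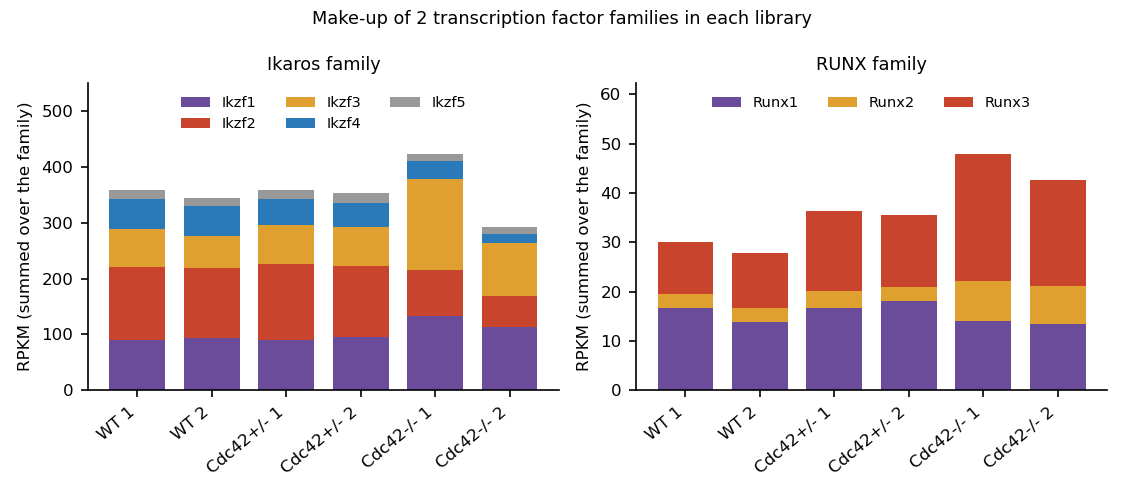
Summed RPKM (y axis, from 0) of the 5 Ikaros-family genes (left) and the 3 RUNX genes (right) in each library (x axis), with each gene as a part of the bar. Ikzf2 makes up 19.6% and 19.3% of the Ikaros bars in Cdc42-/-, against 36.3% or more in the other libraries, and Runx3 makes up 53.7% and 50.5% of the RUNX bars.

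Foxp1 was at 45.3 and 48.3 RPKM for WT, 40.1 and 42.7 for Cdc42+/-, and 27.5 and 21.9 for Cdc42-/-. The genotypes did not overlap. Foxp1 fell by 0.90 on the log2 scale in Cdc42-/- against WT (SE 0.14, limma adjusted p 0.0123) and by 0.73 against Cdc42+/- (SE 0.14, adjusted p 0.0304), with adjusted p-values between 0.00055 and 0.115 and between 0.00131 and 0.303 over 14 alternatives. In Cdc42+/- against WT the change was -0.17 (SE 0.14, adjusted p 0.999). Without replicate 2 of Cdc42-/- the falls were 0.744 and 0.572 (adjusted p 0.00355 and 0.0124). The ratio of Foxp3 to Foxp1 RPKM lay between 2.42 and 2.90 in 5 libraries and at 4.30 in replicate 1 of Cdc42-/-. Foxp4, another forkhead relative, was at 28.1 and 24.9 RPKM in WT and at 31.5 and 19.3 in Cdc42-/- and overlapped, and Foxp2 did not exceed 0.138 RPKM in any library.

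Gata3 was at 47.0 and 44.9 RPKM for WT, 55.1 and 50.8 for Cdc42+/-, and 56.7 and 63.2 for Cdc42-/-, ordered by genotype with no overlap. Its log2 fold change was 0.20 in Cdc42+/- (SE 0.11, adjusted p 0.999) and 0.38 in Cdc42-/- (SE 0.11, adjusted p 0.0790) against WT, and 0.17 in Cdc42-/- against Cdc42+/- (SE 0.11, adjusted p 0.342). Without replicate 1 of Cdc42-/- Gata3 passed against WT (0.452, adjusted p 0.0125), and without replicate 2 it did not (0.298, adjusted p 0.0790), in a range of 0.0125 to 0.315 over 14 alternatives. The value against Cdc42+/- was 0.251 without replicate 1 (adjusted p 0.0872) and 0.0974 without replicate 2 (adjusted p 0.557), in a range of 0.0507 to 0.775. Foxp3 per Gata3 RPKM was 2.80 and 2.63 in WT, 2.04 in both Cdc42+/- libraries, and 2.09 and 0.925 in Cdc42-/-.

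Of the RUNX genes, Runx3 rose and Runx1 did not pass the test. The windows around the upstream start sites of these genes are shown because both hold the RUNX letters as a pair, marked in capitals with the other letters as above. They lie at chr16:92826025-92826324 (minus strand) and chr4:135120395-135120694 (plus strand) on GRCm38.p6.
Runx1 start site 1: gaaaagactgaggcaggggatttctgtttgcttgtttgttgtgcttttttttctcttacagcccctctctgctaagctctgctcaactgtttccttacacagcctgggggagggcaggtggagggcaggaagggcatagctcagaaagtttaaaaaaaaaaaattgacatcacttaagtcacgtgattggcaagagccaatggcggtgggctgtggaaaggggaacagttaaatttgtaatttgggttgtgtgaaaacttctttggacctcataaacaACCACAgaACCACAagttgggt
Runx3 start site 1: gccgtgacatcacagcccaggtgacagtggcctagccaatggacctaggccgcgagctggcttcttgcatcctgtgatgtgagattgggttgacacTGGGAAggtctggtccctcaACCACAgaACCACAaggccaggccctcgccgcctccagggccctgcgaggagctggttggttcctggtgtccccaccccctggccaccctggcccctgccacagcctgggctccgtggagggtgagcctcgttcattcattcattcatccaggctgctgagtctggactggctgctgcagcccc
Each held 2 matches to TGTGGT, both on the reverse strand, and 16.8% of all windows hold 1 or more. Of the 13 windows found for 7 members, these 2 held RUNX letters, 3 held Ikaros letters, 1 held GATA letters and 0 held the forkhead letters, which 3.65% of all windows hold. No sequence is shown for Ikzf2 and Ikzf4.

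Runx3 was at 10.6 and 11.2 RPKM for WT, 16.04 and 14.5 for Cdc42+/-, and 25.7 and 21.5 for Cdc42-/-. The 3 genotypes did not overlap and were ordered from WT through Cdc42+/- to Cdc42-/-. The step from WT to Cdc42+/- cannot be told apart from the sex-linked difference between these genotypes. Runx3 rose by 1.05 on the log2 scale in Cdc42-/- against WT (SE 0.14, limma adjusted p 0.00809, between 0.00194 and 0.0818 over 14 alternatives), which is 2.17-fold in mean RPKM. In Cdc42+/- against WT the change was 0.45 (SE 0.14, adjusted p 0.862), where the authors' deposited table has 0.46 with an adjusted p of 0.0353. Against Cdc42+/- it was 0.60 (SE 0.14, adjusted p 0.0546), and it passed without replicate 1 of Cdc42-/- (0.473, adjusted p 0.0382) and without replicate 2 (0.720, adjusted p 0.0157), in a range of 0.0157 to 0.364. Runx3 had the lowest adjusted p of the members in Cdc42-/- against WT.

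Runx1 was at 16.6 and 13.9 RPKM for WT, 16.6 and 18.1 for Cdc42+/-, and 14.2 and 13.4 for Cdc42-/-. The Cdc42-/- libraries overlapped with WT and lay below Cdc42+/-. The log2 fold change was -0.14 against WT (SE 0.14, adjusted p 0.545) and -0.31 against Cdc42+/- (SE 0.14, adjusted p 0.205), and 0.18 between Cdc42+/- and WT (SE 0.14, adjusted p 0.999). The ratio of Runx3 to Runx1 RPKM, which needs no scaling between libraries, was 0.636 and 0.803 for WT, 0.967 and 0.797 for Cdc42+/-, and 1.82 and 1.61 for Cdc42-/-. Runx1 RNA thus exceeded Runx3 RNA in the 4 libraries of WT and Cdc42+/-, and Runx3 RNA exceeded Runx1 RNA in both of Cdc42-/-. Runx2, the remaining RUNX gene and best known from bone, rose as well, from 2.95 and 2.68 RPKM in WT to 8.03 and 7.70 in Cdc42-/- (1.22, SE 0.18, adjusted p 0.0122, between 0.00326 and 0.0985 over 14 alternatives).

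Cbfb, the partner that all RUNX proteins share, was at 61.2 and 64.3 RPKM for WT, 66.4 and 60.5 for Cdc42+/-, and 72.2 and 84.9 for Cdc42-/-. Both Cdc42-/- libraries were above the other 4. The log2 fold change was 0.31 against WT (SE 0.12, adjusted p 0.146), 0.30 against Cdc42+/- (SE 0.12, adjusted p 0.175) and 0.01 in Cdc42+/- against WT (SE 0.12, adjusted p 0.999). Without replicate 1 of Cdc42-/- Cbfb passed against WT (0.430, adjusted p 0.0150) and against Cdc42+/- (0.416, adjusted p 0.0176), and without replicate 2 the values were 0.198 (adjusted p 0.209) and 0.184 (adjusted p 0.256). Over 14 alternatives the adjusted p-values lay between 0.0150 and 0.413 and between 0.0176 and 0.597. Runx1 and Runx3 together reached 27.2 and 25.1 RPKM in WT, 32.6 in both Cdc42+/- libraries, and 39.9 and 34.9 in Cdc42-/-. Their sum per Cbfb RPKM lay between 0.391 and 0.553 over all libraries, and Cdc42-/- overlapped with both other genotypes.

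Over the 9 members, the libraries of Cdc42-/- and WT did not overlap for 7, where 56.0% of all genes tested did not overlap. For Cdc42-/- against Cdc42+/- this held for 8 members and 59.0% of all genes, and for Cdc42+/- against WT for 5 members (Foxp3, Ikzf4, Gata3, Foxp1 and Runx3) and 43.2% of all genes. Gata3 and Runx3 were ordered from WT through Cdc42+/- up to Cdc42-/- with no overlap, as were 8.25% of all genes, and Ikzf4 and Foxp1 were ordered downwards, as were 5.11%. The median log2 fold change of the members was 0.01 in Cdc42+/- against WT, -0.14 in Cdc42-/- against WT and -0.31 in Cdc42-/- against Cdc42+/-, beside medians over all genes of 0.03, 0.01 and -0.01. In the authors' deposited table, Ikzf2 (-0.92, adjusted p 0.00570), Ikzf4 (-1.21, adjusted p 0.00344), Foxp1 (-0.96, adjusted p 0.00137) and Runx3 (1.08, adjusted p 0.00124) are the members past 0.05 in Cdc42-/- against WT.

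The geometric mean of the T cell genes was lower in both Cdc42-/- libraries than in the other 4, so the members were also set against it. The genes did not all follow the mean: Cd2 was at 396 and 371 RPKM for WT and at 469.97 and 322 for Cdc42-/-. Dividing each library by the geometric mean of the 10 T cell genes shifted all genes upwards, to a median of 0.47 on the log2 scale between Cdc42-/- and WT. On this scale Ikzf2, Ikzf4 and Foxp1 kept their sign and lost the call, and Ikzf1 (0.93, limma adjusted p 0.0122), Gata3 (0.88, 0.0339), Runx3 (1.53, 0.00531) and Cbfb (0.82, 0.0457) were higher, where 21.1% of all genes passed in either direction. Foxp3 was at -0.07 (adjusted p 0.837). Relative to the shift of all genes, the values were -0.53 for Foxp3, -0.85 for Ikzf2, -1.19 for Ikzf4, -0.87 for Foxp1, 1.07 for Runx3, 0.46 for Ikzf1, 0.415 for Gata3, 0.355 for Cbfb and -0.12 for Runx1. The scaling divides each library by 1 number, so it moves genes alike apart from the added 1 in log2(RPKM + 1). These relative values therefore lie near those without the scaling by construction and are no separate result. Against Cdc42+/- the scaling also ended both calls, of Ikzf2 (-0.38, adjusted p 0.0912) and Foxp1 (-0.19, adjusted p 0.303), and called Ikzf1, Runx3 and Cbfb, where 19.6% of all genes passed. In single libraries, T cell scaled Ikzf2 was 80.7% and 72.0% of the WT mean in Cdc42-/-, Ikzf4 73.7% and 48.1%, Foxp1 73.6% and 76.2%, and Runx3 296% and 323%. The scaling raises replicate 2 of Cdc42-/- against replicate 1 by the same factor for every gene. Whether a member's 2 Cdc42-/- libraries came closer or moved apart was thus fixed by their gap as deposited. Gata3 went from 123% and 138% of the WT mean to 154% and 225%, Cbfb from 115% and 135% to 144% and 221%, and Runx1 from 92.7% and 87.5% to 116% and 143%. Foxp3 was 119% and 76.4%, on either side of WT.

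**Figure D4:**
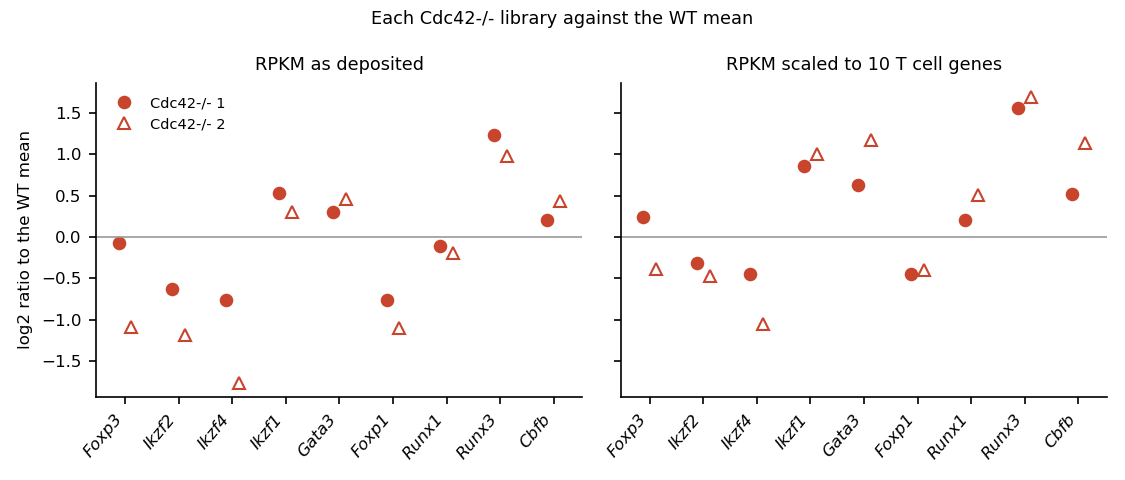
Log2 ratio of each Cdc42-/- library to the WT mean (y axis) for the 9 members (x axis), as deposited (left) and after scaling to 10 T cell genes (right); filled circles are replicate 1 and open triangles replicate 2. Runx3 is above WT and Ikzf2, Ikzf4 and Foxp1 are below it in both libraries on both scales, while Foxp3 in replicate 1 moves from 94.9% to 119% of WT.

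Genes around Foxp3 were read from lists of known biology. Among 20 factors that act at the Foxp3 locus, 2 rose in Cdc42-/- against WT and 0 fell, with a median log2 fold change of -0.14; a share of 2 in 20 is near the 11.4% of all genes that passed in this comparison, which is also the background for the lists that follow. With T cell scaling, where 21.1% of all genes passed, 4 rose and 0 fell. The 2 were Satb1, a genome organiser needed early in Treg development and held low by Foxp3, and Nr4a1, an orphan receptor induced by T cell receptor signals. Satb1 was at 48.3 and 48.2 RPKM for WT, 47.5 and 53.2 for Cdc42+/-, and 113 and 79.4 for Cdc42-/- (0.96 against WT, SE 0.18, limma adjusted p 0.0223). Nr4a1 was at 34.7 and 36.5 RPKM for WT, 36.7 and 38.7 for Cdc42+/-, and 68.7 and 83.5 for Cdc42-/- (1.07, SE 0.13, adjusted p 0.00550). The other 18 did not pass. Among them Foxo1, which drives Foxp3 in development, was at 76.0 and 73.2 RPKM in WT and 56.9 and 36.7 in Cdc42-/-, and Bach2, which restrains effector genes in Treg cells, was at 18.4 and 20.1 RPKM in WT and 15.4 and 7.82 in Cdc42-/-.

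Of 16 partners, modifiers and chromatin enzymes linked to Foxp3, 3 rose and 1 fell in Cdc42-/- against WT, with a median of 0.21. Those that rose were Ezh2, the histone methyltransferase of Polycomb complex PRC2, and the DNA methylation pair Dnmt1 and Uhrf1. Uhrf1 was at 6.48 and 6.15 RPKM for WT, 13.1 and 12.1 for Cdc42+/-, and 44.0 and 63.5 for Cdc42-/- (2.88, SE 0.19, adjusted p 0.00144). Ezh2 was at 19.2 and 21.7, 27.7 and 24.3, and 51.9 and 59.8 RPKM in the same order (1.41, SE 0.13, adjusted p 0.00303). Dnmt1 was at 27.0 and 27.3, 34.7 and 31.9, and 64.6 and 70.9 RPKM (1.29, SE 0.11, adjusted p 0.00209). All 3 are known to be high in dividing cells, and the 10 cycling-cell genes, such as Mki67, rose with them, 10 of 10, with a median of 3.49. Hdac9, a histone deacetylase, fell from 1.77 and 2.45 RPKM to 0.185 and 0.398 (-1.26, SE 0.26, adjusted p 0.0326), and lost the call with T cell scaling (-1.06, adjusted p 0.0512; -1.52 relative to the shift of all genes). On that scale, where 21.1% of all genes passed, 10 of the 16 passed as higher and 0 as lower. Usp7, Stub1, Ep300, Sirt1, Chd4, Tet2 and Mbd2 were called besides Ezh2, Dnmt1 and Uhrf1. Relative to the shift of all genes, those added by the scaling lay between 0.039 (Chd4) and 0.46 (Sirt1), and the median of the list was 0.234. Against Cdc42+/-, Ezh2, Dnmt1 and Uhrf1 rose and 0 fell, where 8.22% of all genes passed, 4.68% higher and 3.54% lower.

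Of 19 genes known to be raised with Foxp3 in Treg cells, 2 rose and 5 fell in Cdc42-/- against WT, with a median of -0.26. The genes that fell were Nt5e (CD73), Izumo1r (folate receptor 4), Nrp1, a surface receptor of thymus-derived Treg cells, Lrrc32 (GARP), which holds latent TGF-beta on the surface, and Socs2, a target of IL-2 signalling. Nrp1 was at 75.5 and 68.9 RPKM for WT, 70.3 and 71.8 for Cdc42+/-, and 17.5 and 30.2 for Cdc42-/- (-1.60, SE 0.24, adjusted p 0.0112). Lrrc32 was at 119 and 107 RPKM for WT, 72.3 and 75.7 for Cdc42+/-, and 79.6 and 62.7 for Cdc42-/- (-0.67, SE 0.14, adjusted p 0.0334). With T cell scaling 3 of the 5 lost the call: Lrrc32 (-0.16, adjusted p 0.381), Socs2 (-0.14, adjusted p 0.617) and Nrp1 (-1.10, adjusted p 0.0666). Relative to the shift of all genes by this scaling the values were -0.63, -0.61 and -1.57, near those as deposited by construction. The scaling also called Ctla4 (1.00, adjusted p 0.0228), Tnfrsf4 (0.84, adjusted p 0.0226) and Capg (0.99, adjusted p 0.0324) as higher, at 0.54, 0.37 and 0.52 relative to all genes. The balance on that scale was thus 5 higher and 2 lower, against 2 and 5 as deposited, while the median relative to all genes was -0.212. The genes that rose were Itgae (CD103), from 17.1 and 12.6 to 37.1 and 36.8 RPKM, and the cytokine gene Il10, from 2.16 and 1.52 to 5.40 and 13.0 RPKM. Il2ra, the high-affinity IL-2 receptor chain that Foxp3 is best known for raising, was at 232 and 207 RPKM for WT, 169 and 149 for Cdc42+/-, and 178 and 139.5 for Cdc42-/-, and did not pass. Among 10 genes known to be held down by Foxp3, 3 rose (Pde3b, Igfbp4 and Ifng) and 1 fell (Ptpn22), with a median of 0.33; Ptpn22 went from -0.51 to -0.0036 with T cell scaling (adjusted p 0.988), and was at -0.47 relative to the shift of all genes, which left 3 higher and 0 lower. Pde3b, a phosphodiesterase repressed by Foxp3, was at 1.19 and 0.994 RPKM for WT, 3.69 and 3.996 for Cdc42+/-, and 6.14 and 4.99 for Cdc42-/- (1.65, SE 0.20, adjusted p 0.00593). Against Cdc42+/-, where 8.22% of all genes passed, 1 gene raised with Foxp3 rose and 4 fell in Cdc42-/-, with a median of -0.0087. Of the genes held down by Foxp3, 1 rose and 1 fell in that comparison, with a median of 0.073. In Cdc42+/- against WT 0 genes of these 4 lists passed.

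**Figure D5:**
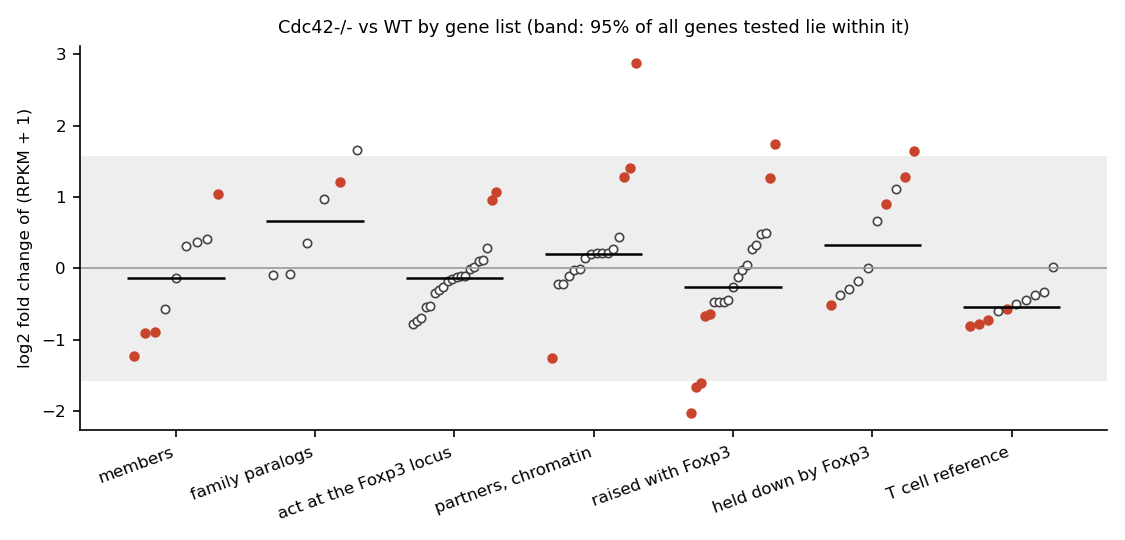
Log2 fold changes of (RPKM + 1) in Cdc42-/- against WT (y axis) for the members and 6 gene lists (x axis). Filled points passed an adjusted p of 0.05 over all genes tested, thick lines are list medians, the thin line is the median of all genes and the grey band holds 95% of all genes tested; 4 members, 2 factors of the Foxp3 locus and 7 genes raised with Foxp3 are filled.

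Genes with the pattern closest to a member were sought among 8213 genes that averaged 5 RPKM or more, by the root mean square difference of centred log2(RPKM + 1) values over the 6 libraries. For Foxp3, whose own root mean square deviation was 0.38, they were Aldh6a1 (0.0549), Magef1 (0.0753) and Prickle3 (0.0898). Prickle3 lies on chromosome X from 7657379 to 7668197, and starts 62136 bases beyond the end of Foxp3. For Ikzf2 they were Parp8 (0.0372), Shisa5 (0.0434) and Lrrc61 (0.0441), for Ikzf4 Zhx2 (0.0949), Etfbkmt (0.105) and Ldhb (0.107), and for Foxp1 Metap1d (0.0531), Rab37 (0.0596) and Ctso (0.0623). For Runx3 they were Rab27a (0.0756), Mfge8 (0.091) and Gmfg (0.0973). Rab27a, a GTPase of granule release, was at 27.8 and 25.0 RPKM for WT, 37.1 and 33.0 for Cdc42+/-, and 56.2 and 50.7 for Cdc42-/-. It was picked for its likeness to Runx3, so its order of genotypes is no separate result.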

How the data were processed

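Splenic Treg cells were profiled by RNA-seq in 6 libraries. Per the submitters' processing notes, TopHat and the build mm10 were used; the counting tool, annotation, strand setting and filters are not given in the sources used here. The authors deposited 2 tables of 14608 genes, one per knockout genotype against WT. Their library columns hold RPKM computed by the authors, a unit worked out from the deposited values, since the headers name none. Per the file headers, the authors also deposited a mean signal per group, a fold change (a ratio), its log2 value, and p-values of a test that is not named. Columns were matched to samples through the sample descriptions, and 0 columns were of unknown sample. Combining RPKM and group means gave whole reads (within 0.001) for 100% of values. The RPKM of Runx3, the member with the fewest reads, rested on 373 reads or more.

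Log2(RPKM + 1) was fitted with limma 3.58.1 in R 4.3.3 (lmFit, eBayes with a mean-variance trend), two-sided, with the 6 libraries in 1 fit, for the 12233 genes that averaged 0.5 RPKM or more; p-values were adjusted by Benjamini-Hochberg over these genes, with a threshold of 0.05. Fold changes on this scale understate those of low genes. An exact permutation test of 2 against 2 libraries cannot go below 0.333 and was not used. Alternatives were a pseudocount of 0.1, no filter, upper-quartile and T cell scaling, only the 2 genotypes compared, the replicate number as a block, array weights, voom on the recovered reads, and leaving out each library. The steps were tested on simulated data. Named genes were the 9 members, up to 6 genes past the threshold per list and comparison, the library checks Cdc42, Xist and Ddx3y, and the 3 genes of closest pattern for Foxp3 and for each member past the threshold. Genes named short of the threshold (Ikzf3, Ikzf5, Foxp4, Foxp2, Foxo1, Bach2, Il2ra, Cd2, Gata2, Klf1 and those called with T cell scaling alone) were added after their values were seen. The members and lists were chosen with earlier results of these data known, so counts within them are no independent support. Of the lists, Il2 and Il17a, and in the marker lists Ncr1 and the 4 haemoglobin genes, were not analysed here. Gene positions are RefSeq's on GRCm38.p6 (mm10), matched by gene ID for all 9 members, and overlapping exons were read from GENCODE M21.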

Additional observations from a re-analysis of the deposited data

How the results depend on the processing

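The number of members past the threshold in Cdc42-/- against WT was 4 (11.4% of all genes), and 4 (7.23% to 21.1%) under pseudocount 0.1, upper-quartile and T cell scaling, the replicate block, array weights and voom; T cell scaling called other members (Ikzf1, Gata3, Runx3 and Cbfb). Without the filter it was 3 (8.44% of all genes passed), with only the 2 genotypes compared 1 (4.44%), and between 0 and 8 (2.11% to 36.2%) when 1 library was left out. Against Cdc42+/- the number was 2 (8.22%), and 0 with only the 2 genotypes compared (2.19% of all genes), 3 with voom (Ikzf2, Foxp1 and Runx3; 9.64%), 3 with T cell scaling (Ikzf1, Runx3 and Cbfb, with Ikzf2 and Foxp1 lost; 19.6%), and between 0 and 7 (0% to 34.8%) when 1 library was left out. In Cdc42+/- against WT it was 0 under all 14 alternatives. The replicate numbers are no stated pairing: the replicate differences of 2 genotypes correlated across genes at 0.0177 (WT and Cdc42+/-), 0.202 (WT and Cdc42-/-) and -0.0343 (Cdc42+/- and Cdc42-/-). With the replicate block, 1 member (Ikzf2) in place of 2 passed against Cdc42+/- (6.61% of all genes). Signs turned for members short of the threshold. With T cell scaling these were Foxp3 (0.19) and Runx1 (0.22) against Cdc42+/-, Runx1 in Cdc42-/- against WT (0.35), and Ikzf2 (-0.0028), Ikzf1 (-0.042) and Cbfb (-0.036) in Cdc42+/- against WT. Relative to the shift of all genes by that scaling (0.49 for Cdc42-/- against Cdc42+/-, 0.47 for Cdc42-/- and -0.014 for Cdc42+/- against WT), Foxp3 (-0.30), Runx1 (-0.27 and -0.12) and Ikzf2 (0.011) kept their sign, while Ikzf1 (-0.028) and Cbfb (-0.022) were below 0. These relative values lie near those without the scaling by construction. Ikzf1 in Cdc42+/- against WT also turned with upper-quartile scaling (-0.0016), and, leaving out 1 library, ranged from -0.031 to 0.047. Cbfb there ranged from -0.053 to 0.080, and Foxp3 against Cdc42+/- from -0.87 to 0.13. The cause of the other changes was not tested. Members rested on 373 reads or more in a library.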

Other observations

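Gata1, an X-linked GATA-family gene best known as the master regulator of red blood cell precursors, was well detected in every library. It was at 20.6 and 23.4 RPKM for WT, 13.9 and 13.7 for Cdc42+/-, and 27.6 and 29.0 for Cdc42-/-. The Cdc42+/- libraries were lowest and the Cdc42-/- libraries highest, with no overlap, and Gata1 was higher in Cdc42-/- than in Cdc42+/- (0.98 on the log2 scale, SE 0.12, limma adjusted p 0.0107). The erythroid marker Klf1 was at 0.123 and 0 RPKM for WT, 0.255 and 0 for Cdc42+/-, and 0.825 and 9.06 for Cdc42-/-. No exon of another gene in GENCODE M21 overlaps those of Gata1, which starts 364017 bases beyond the end of Foxp3 on chromosome X.

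Gata2, in contrast, was at 0.727 RPKM or less in 5 libraries and at 8.51 RPKM in replicate 2 of Cdc42-/-, the library with the highest myeloid and erythroid marker levels; the part of these cells in its level was not tested.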
